A study of Homo sapiens with 8 samples.

Results

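The MYC network genes examined here were the 10 genes MYC, MYCN, MYCL, MAX, MXI1, MXD1, MXD3, MXD4, MNT and MLX, chosen by name from 60725 genes in the count table, and all 10 were among the 16367 genes that could be tested. They were followed by RNA-seq in HAP1 cells in which the negative elongation factor (NELF) was depleted. HAP1 cells carry nearly a haploid set of human chromosomes and descend from a chronic myeloid leukaemia. All libraries came from a single monoclonal line carrying dCas9-KRAB, a catalytically dead Cas9 fused to a repressor domain that silences promoters to which a guide RNA leads it (CRISPRi). Cells received a lentiviral guide against NELFE (3 libraries), a guide against NELFB (2 libraries) or a control guide whose labelled target is ADAM22 (3 libraries), were selected with puromycin, and were collected after 144 h. ADAM22 itself therefore has no untargeted reference in cells without NELF depletion.

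MYC, MYCN and MYCL are basic helix-loop-helix leucine zipper proteins that activate transcription as heterodimers with MAX at E-box sequences, of which CACGTG is the canonical form. MXD1, MXI1, MXD3, MXD4 and MNT compete for MAX and recruit SIN3 and histone deacetylases to the same kind of site, so that the network balances growth against cell cycle exit. MLX is a MAX-like partner that dimerizes with MXD1, MXD4 and MNT and with the glucose-sensing factors MLXIP (MondoA) and MLXIPL (ChREBP). MYC mRNA is short-lived, and its transcription is known to be controlled in part by promoter-proximal pausing of RNA polymerase II, the step at which NELF acts.

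The 3 members that rose after NELF depletion were MYCL, MXD1 and MXD4. The bases upstream of their start sites are shown as a description, and no expression result rests on them. Each run holds the 250 bases before the RefSeq start on GRCh38.p14, 5′ to 3′ on the strand of the gene. Capitals mark the canonical E-box CACGTG and the GC box GGGCGG, which reads CCGCCC on the opposite strand. These motifs were chosen after the expression values were seen. The MXD1 window is chr2:69914859-69915108 on the plus strand, that of MXD4 is chr4:2262110-2262359 on the minus strand and that of MYCL is chr1:39901918-39902167 on the minus strand.
MXD1: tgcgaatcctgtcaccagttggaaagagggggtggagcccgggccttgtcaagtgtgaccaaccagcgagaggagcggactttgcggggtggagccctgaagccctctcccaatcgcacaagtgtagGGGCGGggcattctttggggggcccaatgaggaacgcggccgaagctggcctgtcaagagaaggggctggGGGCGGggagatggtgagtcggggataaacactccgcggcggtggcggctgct
MXD4: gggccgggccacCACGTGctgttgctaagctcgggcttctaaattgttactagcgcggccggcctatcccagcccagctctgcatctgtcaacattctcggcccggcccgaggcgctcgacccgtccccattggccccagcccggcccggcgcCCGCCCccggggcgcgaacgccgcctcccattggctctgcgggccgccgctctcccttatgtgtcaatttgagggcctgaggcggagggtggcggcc
MYCL: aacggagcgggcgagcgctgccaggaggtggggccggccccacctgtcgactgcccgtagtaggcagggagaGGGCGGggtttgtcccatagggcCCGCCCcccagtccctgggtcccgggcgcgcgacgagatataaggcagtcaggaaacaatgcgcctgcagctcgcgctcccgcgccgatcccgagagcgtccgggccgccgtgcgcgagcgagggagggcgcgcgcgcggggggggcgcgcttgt

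MXD4 held 1 canonical E-box, 232 bases before its start, while MXD1 and MYCL held none. Of the 9 members with a RefSeq promoter entry, which leaves out MYC, 3 held the canonical E-box, and the other two were MNT (187 bases before the start) and MLX (44 bases before). Over all 35116 RefSeq promoter windows of the same length, 6.34% held this motif. The GC box was found in 9 of 9 member promoters, and in 42.6% of all windows. A noncanonical E-box, CACGCG, was in 0 of 9 member promoters and in 9.72% of all windows. The motifs were searched on both strands, and none contains another. A match describes the letters in the window and nothing about occupancy.

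The knockdowns were first checked on their targets. NELFE mRNA stood at 50.6, 49.5 and 47.8 CPM (read counts scaled to library size with edgeR's TMM method) in the control libraries and at 2.41, 2.38 and 2.98 CPM in the NELFE knockdown, against 61.4 and 56.6 CPM in the NELFB knockdown. NELFB mRNA was 74.6, 72.8 and 78.7 CPM in control, 3.08 and 2.76 CPM in the NELFB knockdown, and 63.5, 64.2 and 64.0 CPM in the NELFE knockdown. Each target was lowest by far in its own knockdown. NELFB was also called lower in the NELFE knockdown, by a much smaller amount (log2 fold change -0.24 ± 0.072, edgeR adjusted p = 0.0481). ADAM22 measured 13.7, 12.9 and 11.2 CPM in control and between 29.9 and 47.6 CPM in the 5 knockdown libraries and was therefore low in the libraries whose guide targets it. Library totals lay between 22037423 and 24444185 counts. Among control libraries, replicates 2 and 3 were closer to each other than to replicate 1, with a chi-square per degree of freedom over genes of 5.76 against 17.1 and 29.4, and among NELFE libraries replicate 3 stood apart from replicates 1 and 2 (21.1 and 21.4, against 4.25 between those libraries).

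The label HAP1 was checked against marker genes. BCR and ABL1, the partners of the fusion gene of the parental leukaemia, were both expressed, at 21.2 and 20.6 CPM on average in control cells. Counts per gene cannot show the fusion itself, so these levels do not test the label. ABL1 was higher in the knockdowns (log2 fold change 1.05 ± 0.172 SE, edgeR adjusted p = 0.0019), and BCR did not pass (0.30 ± 0.134, adjusted p = 0.117). Of 10 blood markers, MPO and HBG1 had no read in any library, PTPRC and SPI1 had 2 reads or fewer in each, and CD34 averaged 0.0990 CPM in control, 0.742 CPM in the NELFE knockdown and 1.84 CPM in the NELFB knockdown. CD34 was the only one to pass the filter on low counts, which it did through the knockdown libraries alone, so no test is given for it. The blood-cell character of the origin was therefore not visible in these markers, and the neural progenitor gene SOX2, the most abundant gene of the neural list, was high in control cells (737 CPM on average).

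In control cells MYC was by far the most abundant member when levels were scaled by transcript length (TPM, read counts divided by the length of the annotated exons and then scaled to the library). MYC reached 625 ± 212 TPM (SD, n = 3), which was 75% of the summed TPM of the 10 genes and placed it at rank 141 of 19586 protein-coding genes. MLX followed with 59.5 ± 11.8 TPM and MAX, the obligate partner of MYC, with 38.7 ± 2.95 TPM. MYC, MLX and MAX did not overlap with their neighbours in this order.

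The repressor genes lay lower and close together. MXI1 had 24.36 ± 7.91 TPM, MNT 22.1 ± 0.952 TPM, MXD3 18.8 ± 6.16 TPM, MXD4 14.7 ± 2.37 TPM and MXD1 12.1 ± 0.646 TPM, with MYCL among them at 13.9 ± 1.45 TPM. From MXI1 down to MXD1 each gene overlapped with the next over the 3 control libraries, so neighbours in this order are not resolved. Across larger steps they were, since every control library of MXI1 (at least 17.9 TPM) and MNT (at least 21.1 TPM) lay above every one of MXD4 (at most 16.5 TPM), MYCL (at most 15.5 TPM) and MXD1 (at most 12.7 TPM). MYCN, the paralog best known from neural and embryonic tissues, was lowest at 4.09 ± 1.12 TPM, and no control library of MYCN reached the level of MXD1. With the longest annotated transcript in place of the exon union, MNT and MXD3 exchanged places and the rest of the order held.

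**Figure D1:**
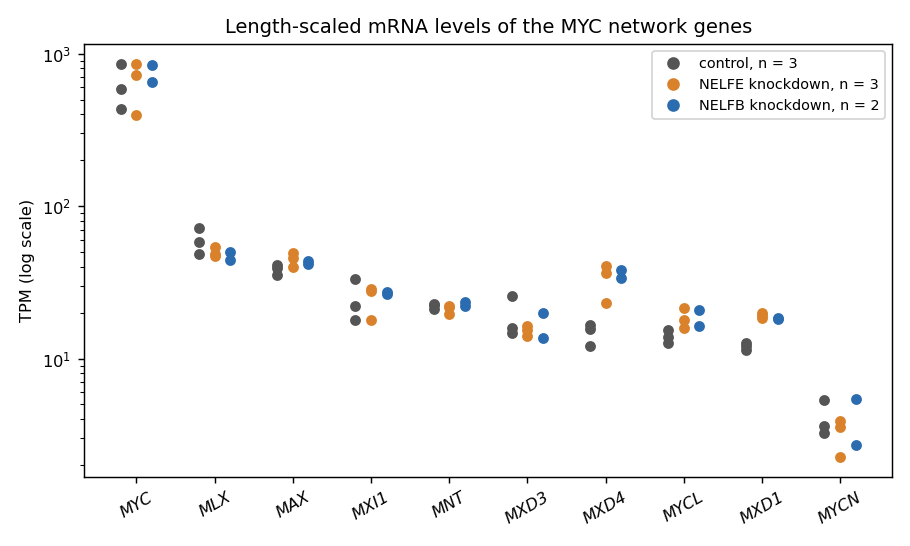
Length-scaled mRNA level of the 10 genes in each library (TPM, log scale), ordered by the control mean, with 3 control, 3 NELFE knockdown and 2 NELFB knockdown libraries. MYC is at 397 TPM or more in every library while no other member exceeds 71.8 TPM, and MXD4 moves from 14.7 TPM in control to 33.4 TPM and 36.0 TPM in the knockdowns.

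With NELF depleted, MXD4 moved up this order. Its mean was 33.4 ± 9.03 TPM in the NELFE knockdown (n = 3) and 36.0 ± 3.16 TPM in the NELFB knockdown (n = 2), above the means of MXI1 (24.7 ± 5.97 and 26.8 ± 0.645 TPM) and MNT (21.2 ± 1.44 and 22.7 ± 0.908 TPM). In the NELFE knockdown the MXD4 libraries, from 23.2 to 40.4 TPM, overlapped with those of MXI1, whose highest was 28.6 TPM. In the NELFB knockdown the lowest MXD4 library, 33.7 TPM, stood above the highest MXI1 library, 27.3 TPM.

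To ask which members depend on NELF, both knockdowns were first pooled and set against control (5 against 3 libraries, edgeR quasi-likelihood test, called at an adjusted p under 0.05 over all genes tested). MXD1, MXD4 and MYCL were higher, no member was lower, and 7 did not pass. In this comparison 26.0% of all genes tested were called, 13.3% as higher. Knockdown and control libraries were fully separated for the same 3 members, a state seen in 28.8% of all genes tested. The median log2 fold change of the 10 members was 0.09, against -0.002 over all genes tested. For bulk RNA, fewer cells expressing a gene and less RNA per cell cannot be told apart.

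MXD4, which encodes a MAX-binding repressor, showed the largest change. It measured 26.0, 27.7 and 20.4 CPM in control, 65.3, 59.6 and 40.0 CPM in the NELFE knockdown and 63.6 and 55.6 CPM in the NELFB knockdown. Every knockdown library lay above every control library, and the lowest of both groups carried replicate number 3. The log2 fold change was 1.20 ± 0.157 SE (95% interval 0.86 to 1.55, 2.30-fold), with an edgeR adjusted p of 0.00059 and rank 226 of 16367 genes by p.

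MXD1 is the founding repressor of the family, known for its induction as cells leave the cycle and differentiate. It measured 17.6, 19.8 and 19.1 CPM in control, 29.6, 29.2 and 29.2 CPM in the NELFE knockdown and 28.1 and 28.3 CPM in the NELFB knockdown. The 5 knockdown libraries fell within a narrow band well clear of control. The log2 fold change was 0.62 ± 0.075 SE (95% interval 0.45 to 0.78, 1.54-fold), with an adjusted p of 0.000352 and rank 160 by p, ahead of MXD4 although the change was smaller.

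The third member to rise was MYCL, a MYC paralog. It measured 18.5, 15.2 and 16.9 CPM in control, 24.96, 21.0 and 19.8 CPM in the NELFE knockdown and 25.1 and 19.4 CPM in the NELFB knockdown. The groups did not overlap, but the lowest knockdown library was less than 1 CPM above the highest control library. The log2 fold change was 0.39 ± 0.116 SE (95% interval 0.13 to 0.64, 1.31-fold, adjusted p = 0.0304). The call was lost without control replicate 2 (adjusted p = 0.133), control replicate 3 (0.0709), NELFE replicate 1 (0.0694) or NELFB replicate 1 (0.0712), whereas MXD1 and MXD4 stayed called in 8 of 8 fits that left out 1 library.

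**Figure D2:**
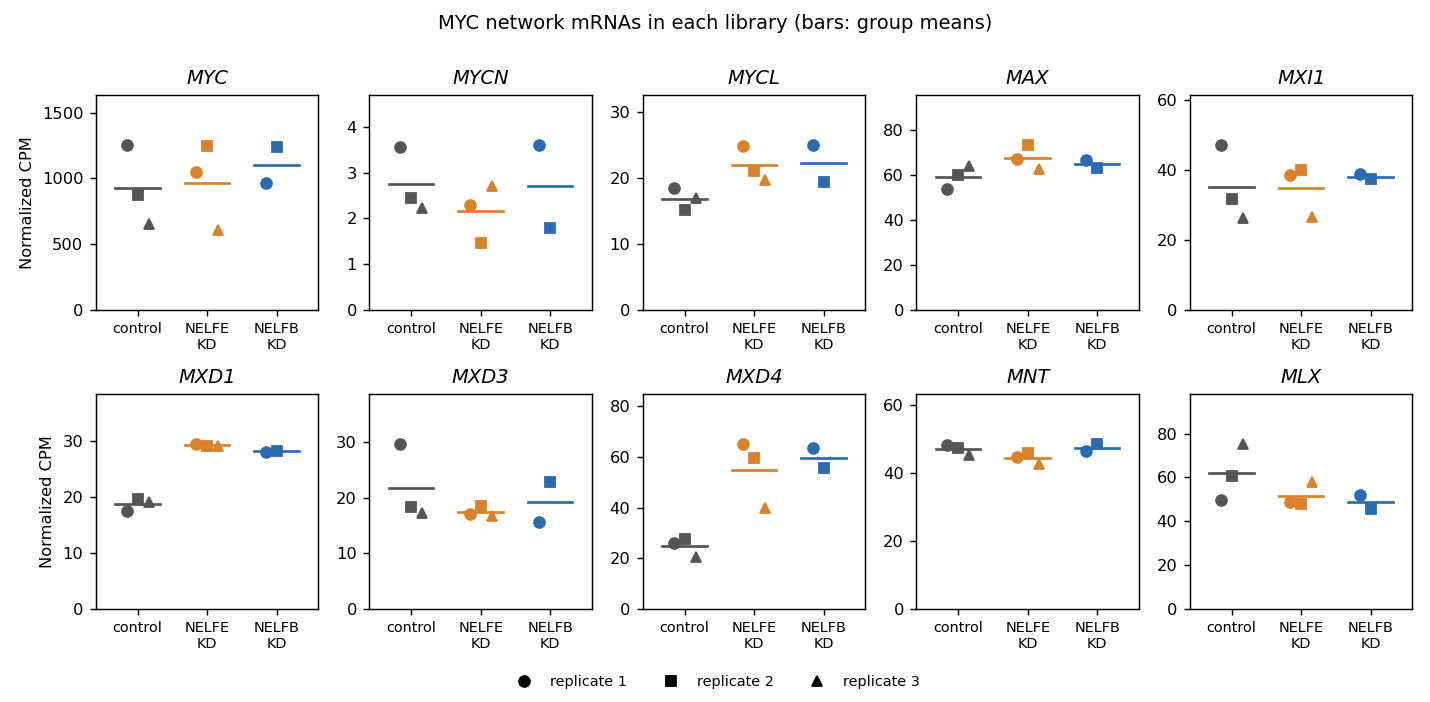
TMM-normalized CPM of each of the 10 genes in the 8 libraries, with symbols for the replicate number, bars for group means and KD for knockdown. MXD1 and MXD4 separate knockdown from control with a wide gap and MYCL with a narrow one, while the replicates of MYC and MXI1 spread as widely within groups as between them.

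MYC did not follow them. It measured 1259, 875 and 656 CPM in control, 1046, 1247 and 608 CPM in the NELFE knockdown and 968 and 1240 CPM in the NELFB knockdown. The groups overlapped over nearly their whole range, and the lowest library was again replicate 3 in both control and NELFE knockdown. The log2 fold change was 0.14 ± 0.262 SE (adjusted p = 0.741), and its 95% interval, from -0.46 to 0.73, leaves room for a change of either sign. With 1 library left out the estimate ranged from -0.06 without control replicate 3 to 0.41 without control replicate 1. With at least 13072 reads on MYC in every library, the spread between libraries and not the read number set this width.

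MYCN, on which 34 to 89 reads fell per library, measured between 2.22 and 3.57 CPM in control and between 1.47 and 3.62 CPM in the knockdowns (log2 fold change -0.21 ± 0.278, adjusted p = 0.606). The groups overlapped, and the 95% interval, from -0.82 to 0.39, includes changes of either sign. MAX ranged from 53.7 to 63.9 CPM in control and from 62.7 to 73.5 CPM in the knockdowns (0.17 ± 0.080, adjusted p = 0.137), so that most knockdown libraries stood above control but the groups overlapped at their edges.

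Among the repressors that did not pass, MXI1 measured 47.4, 31.7 and 26.1 CPM in control and 26.4 to 40.1 CPM in the knockdowns (log2 fold change 0.05 ± 0.185, adjusted p = 0.873). Its estimate ranged from -0.12 without control replicate 3 to 0.32 without control replicate 1. MXD3, which is linked to S phase, measured 29.7, 18.4 and 17.3 CPM in control and 15.6 to 22.7 CPM in the knockdowns (-0.27 ± 0.177, adjusted p = 0.296). The high value of control replicate 1 carried this difference, and without it the estimate was 0.02. MNT, the most broadly expressed MAX-binding repressor, was the steadiest member, with 45.4 to 48.3 CPM in control and 42.7 to 48.7 CPM in the knockdowns (-0.04 ± 0.068, 95% interval -0.19 to 0.11, adjusted p = 0.691).

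MLX had the lowest estimate of the 10 genes without being called. It measured 49.5, 60.8 and 75.5 CPM in control, 48.6, 47.7 and 57.9 CPM in the NELFE knockdown and 51.8 and 45.6 CPM in the NELFB knockdown. Control replicate 1 lay within the range of the knockdown libraries, and the other two control libraries lay above all of them. The log2 fold change was -0.30 ± 0.122 SE (95% interval -0.57 to -0.03, adjusted p = 0.0923). MLX was called lower without control replicate 1 (adjusted p = 0.0134) or without NELFE replicate 3 (0.0391), and in no other fit that left out 1 library. Without control replicate 3 the estimate shrank to -0.13 (adjusted p = 0.444), and over all 8 such fits it ranged from -0.44 to -0.13. By replicate number MLX was lower in the NELFE library than in the control library in 3 of 3 pairs, barely so for replicate 1 (48.6 against 49.5 CPM). With the replicate number as a block in the pooled edgeR fit, MLX was called lower (-0.24, adjusted p = 0.0313). That fit also blocks the NELFB libraries by number. Their deviations did not follow those of same-numbered control libraries (correlation -0.064 and -0.0219).

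Each knockdown was then set against control on its own, in a model of the 3 groups. In either comparison MXD1 and MXD4 were the members called, both higher. The background of calls over all genes tested was 15.0% for the NELFE knockdown (7.92% higher, 7.04% lower) and 19.5% for the NELFB knockdown (10.6% higher, 8.88% lower). Groups were fully separated for MXD1, MXD4 and MYCL in each case, a state found in 33.4% of all genes for the NELFE knockdown and in 51.9% for the NELFB knockdown. The comparisons share their 3 control libraries and are given side by side for that reason.

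The log2 change of MXD4 was 1.15 ± 0.173 with NELFE depleted (edgeR adjusted p = 0.00315) and 1.27 ± 0.189 with NELFB depleted (adjusted p = 0.00196). MXD1 had 0.64 ± 0.084 (adjusted p = 0.00168) and 0.59 ± 0.093 (adjusted p = 0.00266). For MYCL the values were 0.37 ± 0.133 (adjusted p = 0.0839) and 0.40 ± 0.147 (adjusted p = 0.081), neither of which passed. With no filter on low counts both passed (0.0418 and 0.0496). Leaving out control replicate 1 brought MYCL under the threshold in the NELFB knockdown (0.0484), and brought MLX under it in both the NELFE (0.0446) and the NELFB knockdown (0.0263).

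Control and NELFE libraries deviated together from their group means for replicates 1 and 3 (correlation 0.46 and 0.677), and little for replicate 2 (0.106). With the replicate number as a block, MYCL was called higher in the NELFE knockdown (log2 fold change 0.37, adjusted p = 0.00951) and MLX lower (-0.26, adjusted p = 0.0453). The fit with the block called MXD1 and MXD4 as well.

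MYC gave 0.05 ± 0.265 in the NELFE knockdown (95% interval -0.54 to 0.64) and 0.25 ± 0.295 in the NELFB knockdown (-0.40 to 0.91). MLX gave -0.27 ± 0.144 and -0.35 ± 0.163. The remaining members lay between -0.36 and 0.19 in the NELFE knockdown and between -0.18 and 0.13 in the NELFB knockdown, and none was called.

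**Figure D3:**
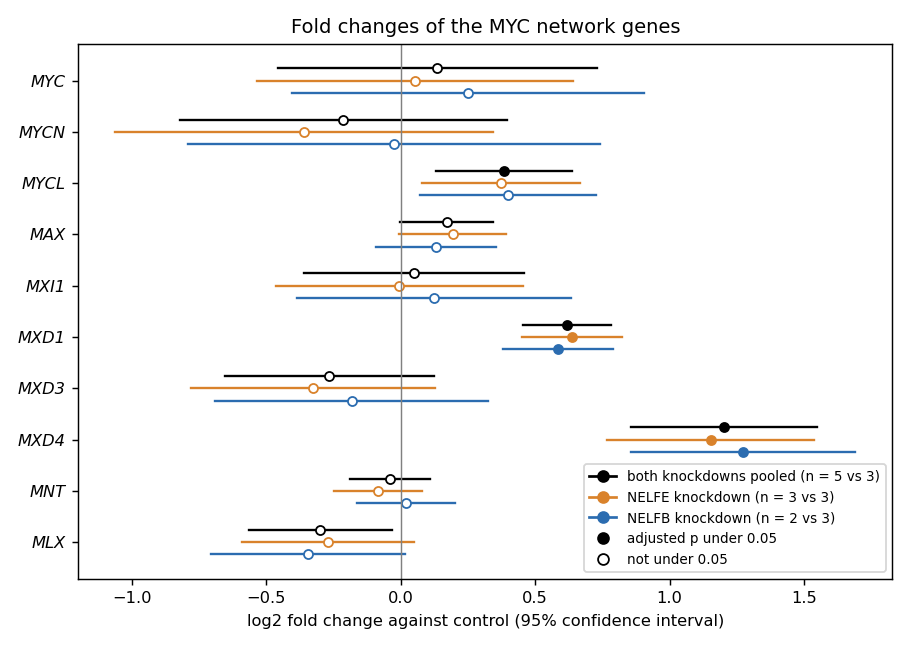
Log2 fold change of the 10 genes against control with its 95% confidence interval, for both knockdowns pooled (black), the NELFE knockdown (orange) and the NELFB knockdown (blue), filled where the adjusted p was under 0.05. MXD1 and MXD4 are filled in all 3 comparisons and MYCL in the pooled one, and the intervals of MYC and MYCN are the widest.

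The knockdowns did not differ from each other in any of the 10 genes by the edgeR test, where 0.315% of all genes tested were called (53 genes, with 863 at an unadjusted p under 0.05). The difference, NELFE minus NELFB knockdown, was 0.05 for MXD1 (95% interval -0.15 to 0.26) and -0.12 for MXD4 (-0.54 to 0.29). For MYCL it was -0.03 (-0.35 to 0.30) and for MYC -0.20 (-0.85 to 0.46). These intervals admit differences of moderate size, so equal responses are not shown.

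The balance of the network was summarized as the summed TPM of MXD1, MXI1, MXD3 and MXD4 over that of MYC, MYCN and MYCL, with no test. The ratio was 0.0986, 0.111 and 0.126 in control, 0.137, 0.115 and 0.176 in the NELFE knockdown and 0.143 and 0.114 in the NELFB knockdown. The highest values were in knockdown libraries, but 2 of the 5 lay within the control range. By replicate number the ratio was higher in the NELFE knockdown in 3 of 3 pairs, narrowly for replicate 2 (0.115 against 0.111). MNT is not part of this sum. With MNT added, the repressor sum of replicate 2 was 89.4 TPM in control and 123 TPM in the NELFE knockdown. The summed MYC, MYCN and MYCL levels were 603 and 880 TPM, so the ratio of that pair was then lower in the NELFE knockdown. The summed MXD level was 86.2, 67.1 and 56.8 TPM in control and 73.4 to 103 TPM in the knockdowns, and MXD4 contributed most to it in every knockdown library.

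Patterns like those of MYC and MXD1 were sought over the 8 libraries as the highest Pearson r of log2 CPM among 12783 genes, given as a description. For MYC these were SH3GLB2 (r = 0.988), ASIC1 (0.982) and ZNF704 (0.98). For MXD1 they were DLX6-AS1 (0.995), LINC01291 (0.993) and SAMD15 (0.992), which share its step between control and knockdown. The libraries have replicate numbers, groups and preparation in common.

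Reads were counted without strand, so overlapping genes bear on some members. Exons of MXD1 share 3.73% of their bases with SNRNP27, which stood at 26.9 CPM in control and 27.0 and 27.1 CPM in the knockdowns. For MXD4 the overlap was MIR4800 alone (1.16%), and for MYCL the antisense MYCL-AS1 (4.55%), at most 0.465 CPM in any library. MYC overlaps CASC11 and MYCN overlaps MYCNOS, which stayed at or below 0.0425 and 0.355 CPM. MXD3 shares 19.5% of its exon bases with RAB24 and 24.2% with PRELID1, MLX shares 18.2% with PSMC3IP and MAX 13.1% with FNTB. MNT shares 12.2% with a lncRNA on the opposite strand, ENSG00000262456, on which no read was counted in any library. The levels of MXD3, MLX, MAX and MNT are therefore less certain.

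The genes around the network were then examined in lists of cofactors, regulators and targets. Of the 3 remaining network factors, MGA, MLXIP and MLXIPL, none was called, with estimates from -0.77 to -0.10. MLXIP, the most abundant of them at 39.0 TPM in control, stood at -0.10 ± 0.065 on the log2 scale (adjusted p = 0.283). Of 11 subunits of the SIN3, histone deacetylase and NCOR corepressors, on which the MXD proteins and MNT rely, 2 were lower and none higher, near the 12.7% of all genes tested that were lower. They were the scaffold SIN3A (-0.23 ± 0.056, adjusted p = 0.012) and the histone chaperone RBBP7 (-0.23 ± 0.072, adjusted p = 0.0363), also the most abundant of the list. The number called lower was 4 without control replicate 1 (2099 of 16685 genes tested lower) or NELFE replicate 3 (2599 of 16317). It was 1 without any other single library, where 1592 genes or fewer were lower. With the replicate block it was 4 as well, where 17.3% of all genes tested were lower.

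Of 15 MYC coactivators 3 were lower and none higher, where 12.7% of all genes tested were lower. KAT5, the catalytic subunit of the TIP60 acetyltransferase, fell from 30.6, 32.2 and 31.0 CPM in control to 17.8 to 20.3 CPM in the 5 knockdown libraries, with no overlap (log2 fold change -0.71 ± 0.076, adjusted p = 0.000184). The helicase-like proteins RUVBL1 (-0.31 ± 0.080, adjusted p = 0.0149) and RUVBL2 (-0.21 ± 0.067, adjusted p = 0.0414), which are partners of KAT5, were also lower. WDR5, the most abundant of the list by mean control TPM over the exon union, did not pass (-0.15 ± 0.086, edgeR adjusted p = 0.242). Its 162 TPM was close to the 158 TPM of RUVBL2. By CPM or with the longest annotated transcript other genes of the list ranked above it, RUVBL1 among them. Without control replicate 2 (1328 of 16805 genes tested lower) or control replicate 3 (1496 of 16782), 1 of the list was called lower.

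Of 14 genes that control the stability of MYC protein, 2 were higher and 3 lower, near the shares of all genes tested (13.3% higher, 12.7% lower). The kinase GSK3B (0.38 ± 0.079, adjusted p = 0.00606) and the ubiquitin ligase subunit FBXW7 (0.32 ± 0.078, adjusted p = 0.0117), which are known to act on MYC protein degradation, were higher. The deubiquitinase USP37 (-0.34 ± 0.089, adjusted p = 0.0162), the kinase AURKA (-0.31 ± 0.094, adjusted p = 0.031) and the scaffold AXIN1 (-0.23 ± 0.063, adjusted p = 0.0189) were lower, and AURKA was the most abundant of the list at 231 TPM. The number lower was 0 without control replicate 2 (1328 of 16805 genes tested lower) or control replicate 3 (1496 of 16782). It was 5 without NELFE replicate 3 (2599 of 16317) or with the replicate block (17.3% of all). Of 8 regulators of the MYC gene or its mRNA none was called, HNRNPK being the most abundant (-0.10 ± 0.078, adjusted p = 0.39). MYC protein was not measured.

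Genes known as activated by MYC were lower more often than higher. Of 60, 34 were lower, 1 was higher and 25 did not pass, where 12.7% of all genes tested were lower. Their median log2 fold change was -0.30, against -0.002 over all genes. The number lower was 19 without control replicate 2, where 1328 of 16805 genes tested were lower. It was 17 without control replicate 3 (1496 of 16782) and 22 without NELFB replicate 1 (1437 of 16220). It reached 47 without control replicate 1 (2099 of 16685).

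IMPDH2, the rate-limiting enzyme of guanine nucleotide synthesis, measured 387, 406 and 406 CPM in control, 192, 201 and 189 CPM in the NELFE knockdown and 208 and 205 CPM in the NELFB knockdown. All knockdown libraries were near the middle between 0 and the control level (log2 fold change -1.01 ± 0.059, adjusted p = 6.93e-06). TERT, the catalytic subunit of telomerase, fell from 7.26, 4.57 and 5.49 CPM to 1.56 to 1.91 CPM in the 5 knockdown libraries (-1.75 ± 0.176, adjusted p = 0.000132). The cell cycle factor E2F2 (-0.80 ± 0.119, adjusted p = 0.000991) and the amino acid transporter SLC7A5 (-0.75 ± 0.070, adjusted p = 0.000103) were lower as well. HSPD1, a mitochondrial chaperone and the most abundant of the list, was near the threshold (-0.28 ± 0.095, adjusted p = 0.0494).

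The exception was the cyclin CCND2, at 29.0, 30.6 and 30.2 CPM in control, 30.8, 39.8 and 44.6 CPM in the NELFE knockdown and 61.0 and 62.3 CPM in the NELFB knockdown. Its rise was larger in the NELFB libraries, and the difference between the knockdowns had an adjusted p of 0.089. In the pooled comparison its log2 fold change was 0.67 ± 0.207 (edgeR adjusted p = 0.0373). This call was lost with no filter on low counts, with the replicate block, and in some fits that left out 1 library.

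Set against control one at a time, 16 of these 60 genes were lower in the NELFE knockdown and 32 in the NELFB knockdown, where 7.04% and 8.88% of all genes tested were lower. With the replicate block, 37 were lower and 1 higher in the NELFE knockdown, where 14.0% of all genes tested were lower and 14.3% higher. None of the 60 differed between the knockdowns by the edgeR test. Against control, the number lower in the NELFE knockdown was 8 without NELFE replicate 1, where 429 of 16756 genes tested were lower. It was 8 without control replicate 2 (551 of 16805), 9 without NELFE replicate 2 (452 of 16773) and 10 without control replicate 3 (897 of 16782). It reached 28 without NELFE replicate 3 (1503 of 16810) and 35 without control replicate 1 (1339 of 16685). With all libraries, 1186 of 16852 genes tested were lower. In the NELFB knockdown it was 18 without control replicate 2, where 805 of 16805 genes tested were lower. It was 19 without control replicate 3 (1078 of 16782). With all libraries, 1497 of 16852 genes tested were lower. Fits that kept 1 NELFB library have no spread of their own for that group, and their counts are not given here. The promoters of 13 of the 50 genes with a RefSeq entry (26%) held the canonical E-box, as did 3 of 11 promoters of MYC-repressed targets (27.3%), against 6.34% of all windows.

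Genes known as repressed by MYC were higher more often than lower. Of 16, 13 could be tested, and of these 7 were higher, 1 was lower and 5 did not pass, with a median log2 fold change of 1.04, where 13.3% of all genes tested were higher. A filter on low counts had removed 3 of the list, so this median does not stand for all 16. The number higher was 4 without control replicate 3, where 1497 of 16782 genes tested were higher.

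Among the higher genes were 3 cell cycle inhibitors. CDKN2B, which encodes p15, rose from 2.85, 3.11 and 3.44 CPM in control to 9.03, 9.94 and 16.4 CPM in the NELFE knockdown and 16.01 and 11.9 CPM in the NELFB knockdown, with no overlap (log2 fold change 2.01 ± 0.223, adjusted p = 0.000208). CDKN1A, which encodes p21, was at 7.66, 11.01 and 5.67 CPM in control, 21.1, 72.4 and 25.5 CPM in the NELFE knockdown and 32.7 and 93.4 CPM in the NELFB knockdown (2.597 ± 0.657, adjusted p = 0.0296). Replicate 2 was the highest of each group for CDKN1A. CDKN1C, which encodes p57, rose as well (1.78 ± 0.378, adjusted p = 0.00811), while CDKN2C, the most abundant of the list, did not pass (0.18 ± 0.103, adjusted p = 0.215).

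THBS1, a secreted matrix protein, had the largest change of the list and rose from 12.8, 29.5 and 38 CPM to 85.8 to 256 CPM in the knockdowns (2.67 ± 0.518, adjusted p = 0.0114). The zinc finger factor KLF6 went the other way (-0.53 ± 0.101, adjusted p = 0.00384). The NELFE knockdown had 5 of the 13 tested genes higher (7.92% of all genes tested) and 9 with the replicate block (14.3% of all). The number was 2 without control replicate 2 (659 of 16805 genes tested higher) or NELFE replicate 1 (561 of 16756). It was 3 without control replicate 3 (926 of 16782) or NELFE replicate 2 (647 of 16773). With all libraries, 1334 of 16852 genes tested were higher. The NELFB knockdown had 6 higher (10.6% of all genes tested), and fits that kept 1 NELFB library are not counted.

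Some markers of other cell types were higher in the same libraries. Of 9 mesenchymal markers the filter on low counts removed 5, and COL3A1 passed it through the knockdown libraries alone, so no test is given for COL3A1. It averaged 0.243 CPM in control, 5.04 CPM in the NELFE knockdown and 19.4 CPM in the NELFB knockdown. TAGLN was higher (log2 change 3.06 ± 0.777, adjusted p = 0.0302), but was not called when any 1 control library was left out. The summed level of the list was 35.0, 26.3 and 26.5 CPM in control, 44.6, 33.1 and 66.5 CPM in the NELFE knockdown and 140 and 83.3 CPM in the NELFB knockdown. COL1A1 was the most abundant in control at 22.9 CPM and did not change detectably (-0.13 ± 0.186, adjusted p = 0.636), and LUM and DCN had no reads in any library. Of 5 epithelial markers 2 passed the filter, KRT8 and KRT18, and both were higher, where 13.3% of all genes tested were. When any 1 control library was left out, 1 of them was higher. The list had a sum of 31.3 to 33.6 CPM in control and 36.7 to 74.5 CPM in the knockdowns, KRT18 the most abundant, KRT19 listed at 0 throughout and CDH1 at 0 in control.

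Of 5 neural markers NES and MAP2 were higher, where 13.3% of all genes tested were, and NCAM1, at 0.214 CPM in control, passed the filter through the knockdown libraries alone. TUBB3 went the other way, with the lowest estimate of the list (pooled log2 fold change -0.37), and was not called. The list sum was 1243, 810 and 700 CPM in control and 772 to 1381 CPM in the knockdowns, and SOX2, which made up most of it, did not pass (-0.02 ± 0.281, adjusted p = 0.974). The blood list summed to 0.482 to 0.577 CPM in control and 1.04 to 3.28 CPM in the knockdowns. The part of these markers in the changes of the MYC network and its targets was not tested.

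**Figure D4:**
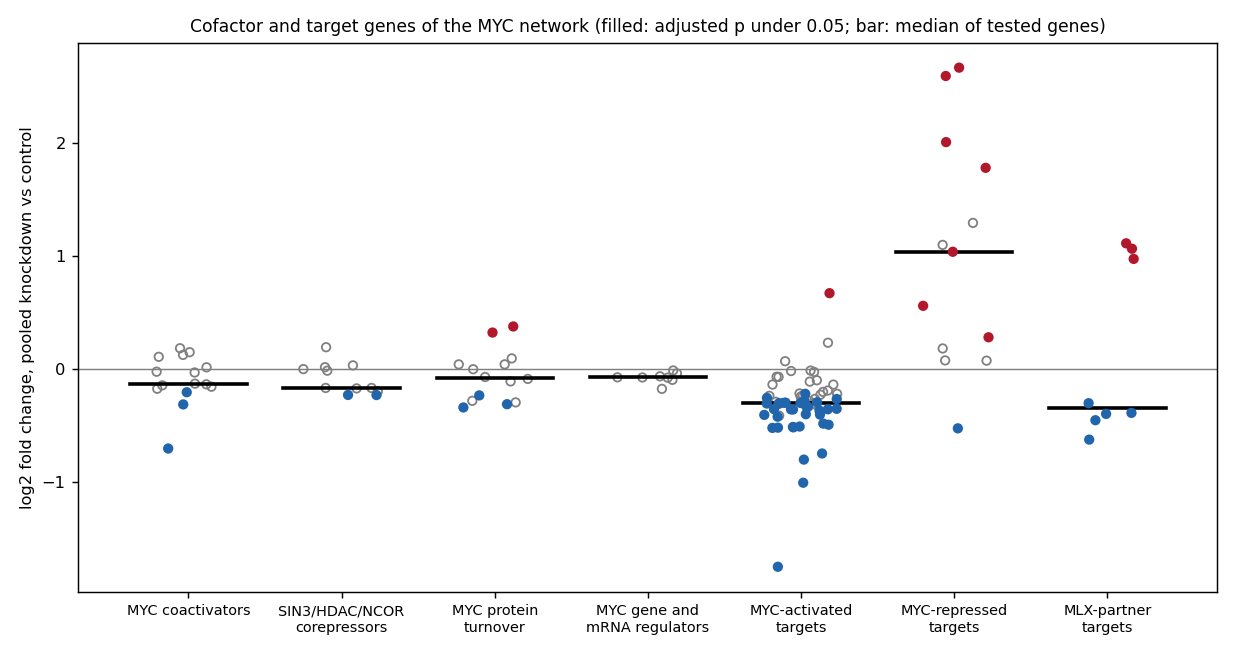
Log2 fold change of each tested gene in the lists of cofactors, regulators and targets, both knockdowns pooled against control, with red and blue points for genes called higher and lower, open points for the rest and bars for medians. Activated targets cluster below 0 around a median of -0.30, repressed targets spread upward around 1.04, and the targets of MLX partners split into 3 above and 5 below 0.

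Targets of the glucose-sensing partners of MLX split in opposite directions, and all 8 that were tested, of 9, were called, where 26.0% of all genes tested were. The arrestin-like genes ARRDC4 (log2 fold change 1.11 ± 0.176, adjusted p = 0.00156) and TXNIP (0.98 ± 0.288, adjusted p = 0.0369), both regulators of glucose uptake, and the factor KLF10 (1.07 ± 0.168, adjusted p = 0.00147) were higher. ARRDC4 rose from 17.7, 16.2 and 12.9 CPM in control to 38.2, 36.0 and 22.1 CPM in the NELFE knockdown and 38.6 and 34.1 CPM in the NELFB knockdown, without overlap. TXNIP overlapped, with 57.3, 37.4 and 26.4 CPM in control and 47.6 to 98.8 CPM in the knockdowns.

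The 5 lower genes included the lipogenic desaturase SCD, the most abundant of the list, which fell from 1007, 979 and 925 CPM to 623 to 745 CPM (-0.45 ± 0.072, adjusted p = 0.00147), and the fructose-metabolizing kinase TKFC (-0.63 ± 0.158, adjusted p = 0.0145). The number lower was 2 without control replicate 1 (2099 of 16685 genes tested lower) or control replicate 2 (1328 of 16805). It was 3 without NELFB replicate 1 (1437 of 16220). The number higher was 2 without most single libraries. In the NELFE knockdown 2 were higher and 2 lower (7.92% and 7.04% of all genes tested), and with the replicate block 3 and 4 (14.3% and 14.0%). The number lower was 1 in 6 of the 8 fits without 1 library, those without control replicate 3 or NELFE replicate 1 being the others. In the NELFB knockdown 3 were higher and 3 lower (10.6% and 8.88% of all genes tested). Fits that kept 1 NELFB library are not counted for this list. The number lower was 1 without control replicate 2 (805 of 16805 genes tested lower) and 5 without NELFE replicate 3 (1937 of 16810).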

How the data were processed

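The authors sequenced polyadenylated RNA of 8 HAP1 libraries as single-end reads of 65 bases, checked reads with FastQC 0.11.6, aligned them with STAR 2.5.4a to GRCh38 and deposited raw counts per Gencode gene, without strand and without normalization. Totals were 22037423 to 24444185 counts per library, and intervals reflect the spread between libraries. Reads carry no molecular identifiers. The study's methods describe the NELFE and NELFB libraries as independent biological replicates, and how the control libraries were separated is not given in the sources used here.

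Differential expression was computed with edgeR 4.0.16 under R 4.3.3 (TMM, robust quasi-likelihood F test after filterByExpr, Benjamini-Hochberg adjustment over all genes tested, threshold 0.05), pooled and in a model of the 3 groups. TPM used exon lengths of GENCODE v44, matched by identifier for 99.9% of counts. Likeness used log2(CPM + 0.5). The code was tested on simulated data. Members, gene lists and tests were chosen with earlier results of these data known. Named were all members, the up to 4 largest called changes per list above a mean log2 CPM of 1, its most abundant gene, the guide targets and genes overlapping members. Also named were KLF6, KLF2 and CCND2, each the only gene of its list called in its direction, and AXIN1, the remaining called gene of its list. Marker genes and motifs named beyond these were chosen after their values were seen.

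Alternatives were DESeq2 1.42.0, its size factors, other filters on low counts, a prior count of 2, other sets of libraries in the fit, the replicate number as a block, and each library left out. Deviations of same-numbered control and NELFE libraries from their group means correlated at 0.46, 0.106 and 0.677, so the numbers pair these groups. For control and NELFB they were -0.064 and -0.0219. The labels do not say what the numbers stand for.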

Additional observations from a re-analysis of the deposited data

Results flagged for a closer look

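In the test of one knockdown against the other, 3 of the named genes differed by the edgeR test. The log2 difference, NELFE minus NELFB knockdown, was -4.52 for NELFE and 4.44 for NELFB, the guide targets. It was -1.998 for ACTA2, a smooth muscle actin from the list of mesenchymal markers, which averaged 1.82 CPM in control, 3.32 CPM in the NELFE knockdown and 13.2 CPM in the NELFB knockdown. None of the 10 MYC network genes met this test.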

How the results depend on the processing

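MXD1 and MXD4 were called higher under each of the 15 alternatives, single libraries left out included, in the pooled, NELFE and NELFB comparisons with control. MYCL was called in 11 of 15 in the pooled comparison (adjusted p 0.00395 to 0.133) and MLX in 4 of 15 (0.0134 to 0.444). The number of members called lower was 1 in place of 0, this being MLX, with no filter on low counts (pooled and NELFB) and with the replicate block (pooled and NELFE). The number of MYC-activated targets called higher was 0 in place of 1 in the pooled comparison with no filter or with the block, and 1 in place of 0 in the NELFE knockdown under the same changes. With the block 37 in place of 16 of these targets were lower in the NELFE knockdown. Between the knockdowns 1 in place of 0 was lower with DESeq2, with no filter or with the block. The block moved the call of MYCL (higher) and MLX (lower) in the NELFE knockdown and of no other member there. In the NELFB comparison, whose numbers do not pair, the block called MYCL (adjusted p = 0.0234). With no filter MYCL was called in the NELFE (0.0418) and NELFB (0.0496) comparisons. The cause of these shifts was not tested.

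Signs that changed belonged to estimates that were not called. With the block the log2 fold change of MXI1 was -0.006 (pooled), 0.007 (NELFE) and -0.032 (NELFB), and that of MNT was -0.006 (NELFB), while with at least 10 counts in every library MXI1 was at 0.004 (NELFE). For NELFE minus NELFB the block gave 0.013 for MYC, 0.010 for MYCL, 0.039 for MXI1, 0.025 for MXD4 and -0.054 for MLX.

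With 1 library left out, members called lower ranged from 0 to 1 in each comparison with control. Activated targets called lower ranged from 17 to 47 (pooled), 8 to 35 (NELFE), 7 to 48 (NELFB) and 0 to 1 (between knockdowns), and those called higher from 0 to 1 (pooled and NELFE). Pooled log2 fold changes ranged from -0.061 to 0.413 for MYC, -0.419 to 0.021 for MYCN, -0.123 to 0.324 for MXI1 and -0.407 to 0.021 for MXD3. In the NELFE knockdown they ranged from -0.171 to 0.331 for MYC and -0.176 to 0.272 for MXI1. In the NELFB knockdown they ranged from -0.629 to 0.39 for MYCN, -0.047 to 0.4 for MXI1, -0.487 to 0.105 for MXD3 and -0.022 to 0.044 for MNT. For NELFE minus NELFB they ranged from -0.421 to 0.047 for MYC, -0.749 to 0.27 for MYCN, -0.194 to 0.178 for MYCL, 0.0 to 0.112 for MAX, -0.235 to 0.036 for MXI1, -0.381 to 0.162 for MXD3, -0.265 to 0.061 for MXD4 and -0.021 to 0.178 for MLX. Where 1 NELFB library remained, it was assumed to vary like the other groups. Among the members MYCN rested on the fewest reads, 34 to 89 per library.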

Other observations

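Immediate early genes, a class that is known for polymerase pausing and shares rapid mRNA turnover with MYC, moved in part. Of 13, 4 were higher, 1 was lower and 8 did not pass in the pooled comparison (edgeR, median log2 fold change 0.78), where 13.3% of all genes tested were higher and 12.7% lower. FOS stood at 4.05, 3.91 and 1.05 CPM in control, 33.9, 70.5 and 7.26 CPM in the NELFE knockdown and 99.3 and 123 CPM in the NELFB knockdown (log2 fold change 4.47 ± 1.12, adjusted p = 0.0308). NELFE replicate 3 was the lowest knockdown library of FOS, as it was of MXD4 and MYC. FOSB (1.44 ± 0.388, adjusted p = 0.0201), KLF4 (1.00 ± 0.262, adjusted p = 0.0168) and JUNB (0.78 ± 0.2, adjusted p = 0.0151) were also higher, and KLF2 was lower (-0.73 ± 0.238, adjusted p = 0.042). EGR1, the most abundant of the list, ranged from 9.33 to 60.1 CPM in control and from 23.8 to 358 CPM in the knockdowns, and did not pass (2.52 ± 1.09, adjusted p = 0.144). None of the 13 was called without control replicate 2, where 1360 of 16805 genes tested were higher and 1328 lower. The same held without control replicate 3 (1497 and 1496 of 16782). In the NELFB knockdown 9 of the 13 were higher (10.6% of all genes tested), and fits that kept 1 NELFB library are not counted. In the NELFE knockdown 1 was higher (7.92% of all genes tested), or 6 with the replicate block (14.3% of all). The number was 3 without control replicate 1 (1395 of 16685 genes tested higher) and 4 without NELFE replicate 3 (1620 of 16810). It was 0 without any other control or NELFE library, where 926 genes or fewer were higher. None of the 13 differed between the knockdowns by the edgeR test.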
